A study of Mus musculus with 24 samples.

Results

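The comparison is between striatum and frontal cortex in CD11b-positive brain cells of mice given lipopolysaccharide (LPS), a bacterial cell wall component that activates innate immune cells. It rests on 11 of the 24 RNA-seq libraries of the series, chosen by their labels: 5 striatum libraries (control replicates 1 to 3 and MIA replicates 1 and 2) and 6 cortex libraries (control and MIA replicates 1 to 3). MIA stands for maternal immune activation, an immune stimulus given to the dam, whose agent the labels do not name. All animals were male and 8 to 10 weeks old. All had received LPS by intraperitoneal injection at 4500 EU per g body weight, 18 h before the cells were taken. No strain or transgene is named in the labels, and the litter of each animal is not given. Brains had been perfused and freed of meninges, the tissue digested with papain, and the cells bound to CD11b magnetic beads. The striatum sample pooled several tissue pieces that included tissue around the nucleus accumbens. A library titled as excluded (MIA striatum replicate 3) was left out. The 12 saline libraries of the series are used at the end for the size of the regional difference without LPS.

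Microglia are the resident macrophages of the brain and make up most CD11b-positive cells of healthy brain tissue. LPS in the blood reaches them through signals at the brain's vessels and borders, and they answer with cytokines, chemokines, interferon-induced genes and a lower level of homeostatic genes such as P2ry12. Microglia of different brain regions are known to differ at rest, and a subset that expresses arginase-1 has been described in the basal forebrain and ventral striatum of mice.

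The 11 libraries held 19453300 to 29480500 counts and 17723 to 20190 genes with a count, and the depths of the regions overlapped (19453300 to 28130300 in striatum, 20116800 to 29480500 in cortex). Mitochondrial transcripts took 1.93 to 4.37% of counts in striatum and 2.11 to 4.31% in cortex. The microglial markers Tmem119 (1861 to 3747 CPM, library counts scaled to a common total, over the 11 libraries) and Cx3cr1 (4480 to 6613 CPM) were high in all of them. MIA cortex replicate 3 stood apart through neuronal transcripts: its summed level of 20 pan-neuronal genes was 649.8 CPM, against 123.7 to 244 CPM in the other 10 libraries. Several results that turn on that library are given with and without it, but the values of single neuronal genes are not. The labels do not say that replicates are separate animals, so the p-values below measure the spread between these samples.

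After LPS, few genes passed the test between striatum and cortex, and their number depended on the model. A gene that did not pass is not shown to be equal in both regions. Of 15968 genes tested, 5 passed an adjusted p of 0.05 in edgeR's quasi-likelihood test with Benjamini-Hochberg adjustment and prenatal group as a term (0.0313%). Arg1, Dmrtb1, Naalad2 and Tarm1 were higher in striatum (0.0251%) and Ccr1 was lower (0.00626%). At an unadjusted p under 0.05 there were 609 genes (3.81%), and DESeq2 with the same model called 59 (32 higher, 27 lower, 0.369%), which included these 5. Without a filter on low counts, edgeR called 28 of 25557 genes. With a term for the replicate number (a replicate block, see the end), it called 40 of 15968. Both sets included these 5. In the main fit, the count was 2 without control striatum replicate 2 or 3. It was 3 without control cortex replicate 1 or MIA striatum replicate 1 or 2, and 4 to 6 when any of the other libraries was left out. In 73 genes (0.457%) the striatum and cortex libraries did not overlap, 41 higher in all striatum libraries (0.257%) and 32 lower (0.2%). Region took 11.8% of the sum of squares of log2 CPM over the tested genes, with 1 of 10 degrees of freedom, and prenatal group took 10.3%. Without MIA cortex replicate 3 these shares were 13.95% and 12.86%, with 1 of 9 degrees of freedom for region. In the 12 saline libraries region took 22.9%, with 1 of 11.

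**Figure D1:**
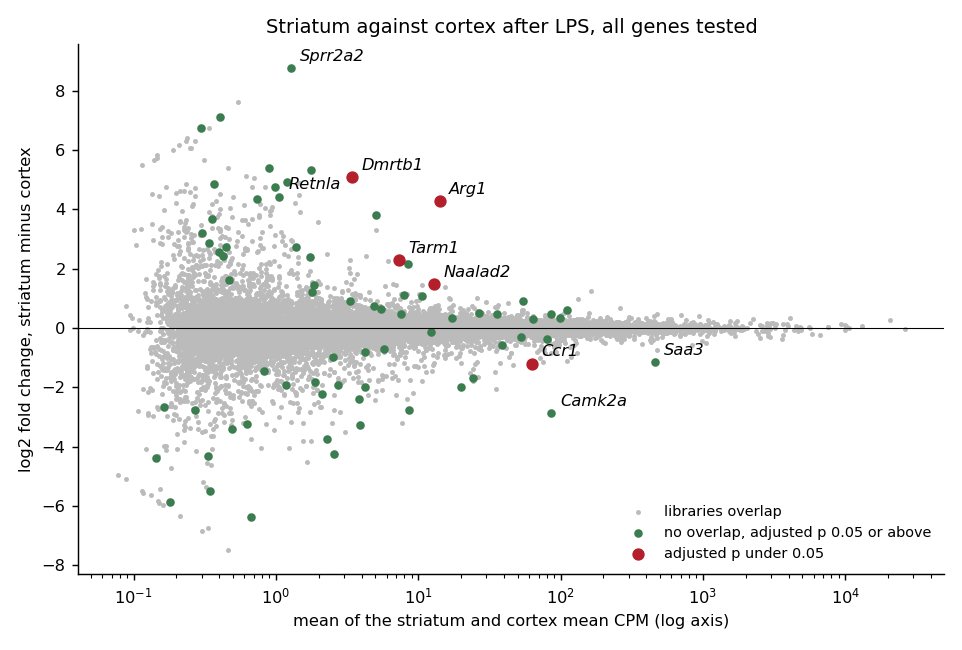
Each point is 1 of the 15968 genes tested; the x axis is the mean of both regions' mean CPM (log axis) and the y axis the log2 fold change of striatum over cortex after LPS. The 5 called genes are red, from Dmrtb1 at a log2 fold change of 5.07 to Ccr1 at -1.20, and green points mark genes whose libraries did not overlap but which did not pass the adjusted p.

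Arg1, which encodes arginase-1, the enzyme that turns arginine into ornithine and urea, had the smallest p. Its level in the striatum libraries was 20.4, 52.5 and 24.9 CPM in controls and 14.98 and 22.6 CPM in MIA offspring. The cortex libraries ran from 0.533 to 2.90 CPM with a median of 0.976. Every striatum library lay above every cortex library, and control striatum replicate 2 was the highest. The log2 fold change was 4.27 ± 0.43 (SE; adjusted p = 0.00347), with means of 27.1 ± 14.7 (SD, n = 5) and 1.31 ± 0.885 CPM (SD, n = 6). The gene was called with each of the 11 libraries left out in turn, at log2 fold changes of 3.98 to 4.66. Without control striatum replicate 2 it was 3.98 (adjusted p = 0.00872).

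Dmrtb1, a DM-domain gene best known from spermatogenesis, was called at a lower level and is named although its mean is below the 10 CPM that the naming rule asked for. The striatum libraries held 5.04, 7.88 and 8.38 CPM in controls and 5.87 and 6.35 CPM in MIA offspring, and the cortex libraries 0 to 0.432 CPM with a median of 0.162. In counts, this was 109 to 227 per striatum library and at most 10 per cortex library. The log2 fold change was 5.07 ± 0.57 (adjusted p = 0.00619), and it too was called with each library left out.

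Naalad2 encodes a carboxypeptidase related to the enzyme that splits the neuropeptide N-acetylaspartylglutamate. Its striatum libraries held 17.1, 16.9 and 21.5 CPM in controls and 15.6 and 24.1 CPM in MIA offspring, against 4.78 to 8.52 CPM in cortex (median 7.03). The groups did not overlap, and the log2 fold change was 1.48 ± 0.19 (adjusted p = 0.0138). It was called in 7 of the 11 fits that left out 1 library. It was not called without control cortex replicate 1, control striatum replicate 2 or 3, or MIA striatum replicate 2, where the adjusted p was 0.0505 to 0.0867.

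Tarm1, an activating receptor of myeloid cells, was 14.8, 15.9 and 13.2 CPM in the control striatum libraries and 6.46 and 10.8 CPM in the MIA striatum libraries. In cortex it ran from 0.760 to 3.29 CPM with a median of 3.15. The lowest striatum library lay above the highest cortex library. The log2 fold change was 2.28 ± 0.33 (adjusted p = 0.0382). This call was the least stable of the 5: it held in 2 of 11 fits that left out 1 library (without MIA cortex replicate 2 or 3), with adjusted p of 0.0763 to 0.156 in the other 9. The log2 fold change itself stayed between 2.13 and 2.61.

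Ccr1, a receptor for the chemokines Ccl3 and Ccl5 among others, was the called gene that was lower in striatum. The striatum libraries held 31.8, 37.5 and 38.8 CPM in controls and 34.7 and 48.4 CPM in MIA offspring, and the cortex libraries 64.2 to 114.3 CPM (median 88.0). No striatum library reached the lowest cortex library. The log2 fold change was -1.20 ± 0.15 (adjusted p = 0.0138), and it was called in 8 of 11 fits. It was not called without control striatum replicate 2 or 3 or MIA striatum replicate 1, at adjusted p of 0.0504 to 0.0763.

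**Figure D2:**
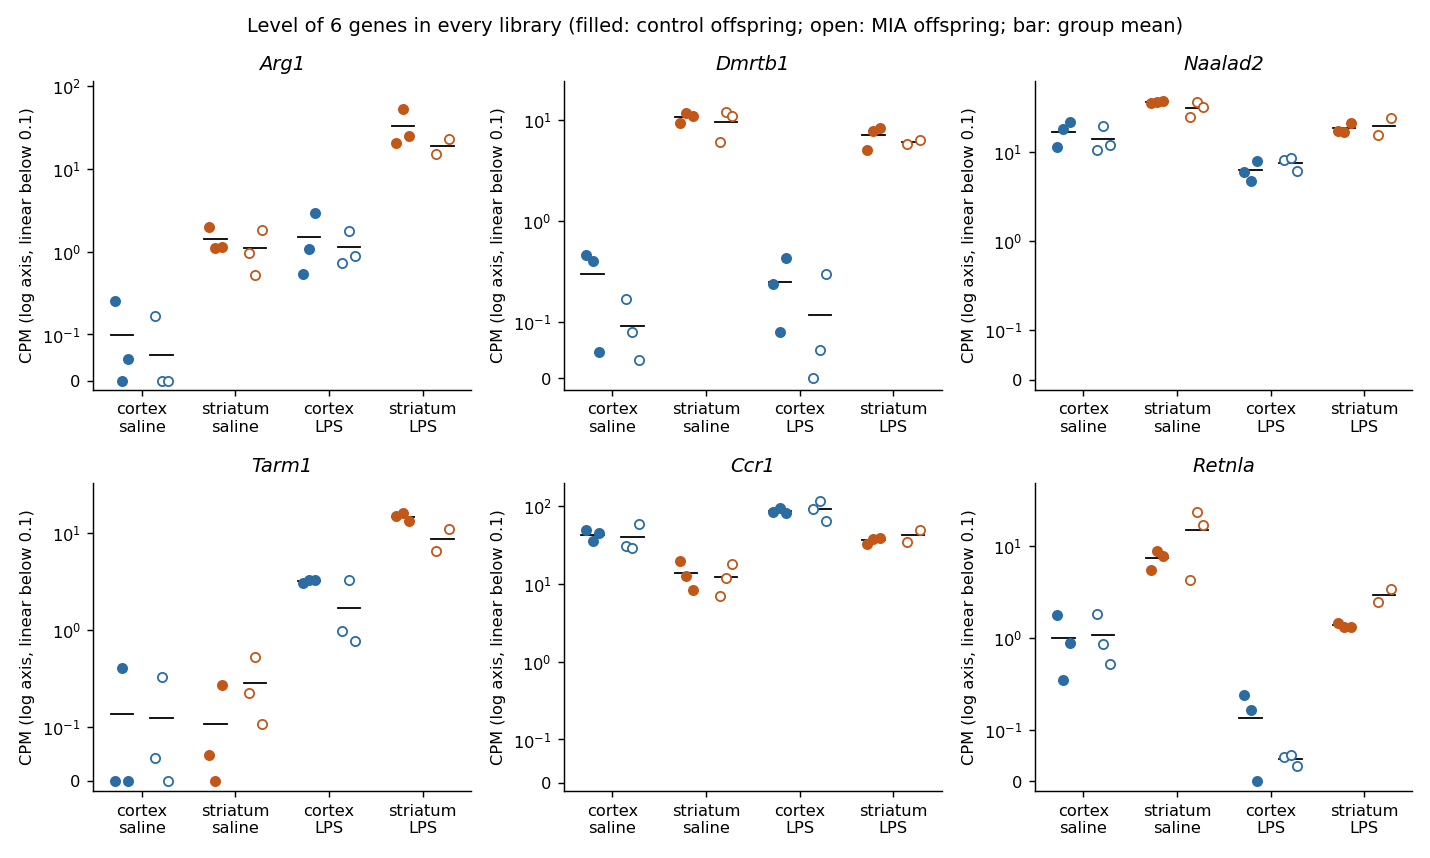
The level in CPM (log axis, linear below 0.1) of the 5 called genes and of Retnla in each of 23 libraries, by region and treatment; filled points are control and open points MIA offspring, and bars are group means. After LPS all striatum points of Arg1, Dmrtb1, Naalad2, Tarm1 and Retnla lie above all cortex points, and those of Ccr1 below.

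Apart from Arg1, the genes of arginine use and of the interleukin-4 response named in this paragraph did not pass the test. They were picked after the values were seen, and Retnla is given in the next paragraph. Arg2, the second arginase, was 1.07 to 4.14 CPM in striatum and 1.30 to 3.88 CPM in cortex, and Odc1, which makes polyamines from ornithine, was 14.6 to 35.5 and 10.3 to 36.5 CPM. Nos2, which competes for arginine, was at most 1.07 CPM in any of the 11 libraries. Chil3, another gene that interleukin-4 induces in macrophages, had a log2 fold change of -0.40 ± 0.33. It is also among the blood monocyte genes listed below, and edgeR called it lower in saline striatum (-2.27, adjusted p = 0.0204). Il4ra and Stat6, the receptor chain and transcription factor of the interleukin-4 response, overlapped between regions (356.3 to 882.9 against 688.6 to 948 CPM for Il4ra, 218.9 to 260.9 against 237.9 to 293 CPM for Stat6).

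Retnla, a secreted protein of the resistin family and a textbook target of interleukin-4 and STAT6, did not overlap between the regions. It held 1.48, 1.34 and 1.33 CPM in control striatum and 2.46 and 3.47 CPM in MIA striatum, and 0 to 0.242 CPM in cortex. In counts this was 25 to 83 per striatum library and 0 to 5 per cortex library. The log2 fold change was 4.43 ± 0.75 with an adjusted p of 0.113, which misses the threshold. It passed in DESeq2 (adjusted p = 2.12e-06), with a stricter filter on low counts (0.0318), without any filter (0.00995) and with all 23 libraries in the fit (0.00132). Sprr2a2, from a family of near-identical small proline-rich genes among which reads can be split, had 26 to 131 counts in each striatum library and 0 in all 6 cortex libraries. Its striatum libraries ran from 1.03 to 7.02 CPM (median 1.71), with the highest in a control library. Their mean of 2.56 CPM was at least 120.5-fold higher than the 0.0212 CPM that 3 counts over the cortex group would give. The adjusted p was 0.108 in edgeR and 4.08e-10 in DESeq2.

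Promoters were looked up for Arg1, Dmrtb1, Naalad2, Tarm1, Ccr1 and Retnla. The RefSeq promoter set used here (GRCm38.p6) lists 1 each for Tarm1, Retnla and Ccr1, and 2 each for Naalad2 and Dmrtb1. It has no entry for Arg1, so the promoter of that gene is not shown. The windows of 250 bases before to 50 after the start are printed for the 3 genes with 1 listed start, as 2 that were higher and 1 that was lower in striatum. They are Tarm1 at chr7:3502575-3502874 (minus strand), Retnla at chr16:48842359-48842658 (plus strand) and Ccr1 at chr9:123968643-123968942 (minus strand). Capitals mark matches on either strand to 5 motifs: C/EBP (TTGCNNAA), STAT6 (TTC and GAA with 4 bases between them), STAT (TTCNNNGAA), the NF-kB consensus and the PU.1 core (GAGGAA).
Tarm1: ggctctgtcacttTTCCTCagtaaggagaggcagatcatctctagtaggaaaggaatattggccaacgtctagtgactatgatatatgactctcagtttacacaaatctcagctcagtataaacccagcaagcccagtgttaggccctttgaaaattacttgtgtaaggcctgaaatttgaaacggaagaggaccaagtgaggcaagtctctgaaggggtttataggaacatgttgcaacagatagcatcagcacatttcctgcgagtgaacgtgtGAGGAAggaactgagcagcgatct
Retnla: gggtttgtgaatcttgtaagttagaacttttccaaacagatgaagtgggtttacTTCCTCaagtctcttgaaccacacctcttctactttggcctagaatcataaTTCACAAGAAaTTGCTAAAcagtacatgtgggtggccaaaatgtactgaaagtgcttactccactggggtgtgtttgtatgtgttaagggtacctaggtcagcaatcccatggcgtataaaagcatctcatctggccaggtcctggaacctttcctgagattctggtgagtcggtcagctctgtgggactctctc
Ccr1: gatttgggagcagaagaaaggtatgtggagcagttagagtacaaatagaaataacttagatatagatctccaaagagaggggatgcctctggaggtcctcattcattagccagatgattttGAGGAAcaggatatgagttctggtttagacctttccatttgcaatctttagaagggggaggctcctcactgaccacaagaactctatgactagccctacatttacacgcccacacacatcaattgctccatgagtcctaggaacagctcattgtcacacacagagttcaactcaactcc
The Retnla window holds a STAT6 match starting 145 bases before the gene's start and a C/EBP match starting 134 bases before it, which lie next to each other. Of all 32851 promoters in the table, 6.95% hold a STAT6 match and 10.8% a C/EBP match. The PU.1 core, which is in 28.3% of promoters, is in all 3 windows, and in those of Tarm1 (2 matches) and Ccr1 (1 match) it is the only motif found. The STAT motif and the NF-kB consensus, in 8.3% and 4.51% of promoters, match none of the 3 windows. A match is a run of letters and was not tested as a site.

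Ligands of Ccr1 did not pass the test. They were chosen after the values were seen. Among them, Ccl3 (607.7 to 1116 CPM in striatum, 553.6 to 1093 CPM in cortex) and Ccl4 (1029 to 2082 and 974.1 to 2030 CPM) overlapped over nearly their whole range. Ccl5 was 23.2 to 90.1 CPM in striatum and 35.98 to 173.9 CPM in cortex (log2 fold change -0.80 ± 0.46). Ccl7 had a log2 fold change of -0.64 ± 0.27 and Ccl6 one of 0.39 ± 0.17, both, as Ccl5, at an adjusted p of 1.00.

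Some genes that missed the threshold are named here, most of them chosen after the values were seen and not by rank of p. Others were higher in striatum without overlap: Postn (log2 fold change 0.91), Sulf2 (1.08), Abcd2 (0.61) and Plin3 (0.51). Their adjusted p was 0.322 to 0.441 in edgeR and 0.00122 to 0.0198 in DESeq2. With the called genes included, 41 genes were higher without overlap and 32 lower. Saa3, an acute-phase apolipoprotein, was 268.5, 190.7 and 356.2 CPM in control striatum, 220.4 and 396.9 CPM in MIA striatum, and 411.5 to 955.3 CPM in cortex (median 594.9). The groups did not overlap, at a log2 fold change of -1.16 ± 0.23 (adjusted p = 0.297 in edgeR, 0.00953 in edgeR without a filter on low counts, 0.000536 in DESeq2). Ccl22, a chemokine that draws Ccr4-bearing T cells, was 5.95 to 9.99 CPM in 4 striatum libraries, 37.1 CPM in MIA striatum replicate 2 and 27.6 to 88.9 CPM in cortex (log2 fold change -2.06 ± 0.47, adjusted p = 0.441 in edgeR, 0.000846 in DESeq2). Ccr7, the receptor that guides dendritic cells to lymph nodes, had a log2 fold change of -1.64 ± 0.42 (adjusted p = 0.614 in edgeR, 0.0131 in DESeq2), and Cd55, which limits complement on the cell surface, one of -1.53 ± 0.31 (adjusted p = 0.322 in edgeR, 0.000563 in DESeq2). Their libraries overlapped. Ly9, a SLAM family receptor, was 23.7 to 51.6 CPM in striatum and 9.68 to 25.8 CPM in cortex (log2 fold change 1.03 ± 0.17, adjusted p = 0.113 in edgeR, 0.000209 in DESeq2).

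The main microglial and inflammatory genes did not pass the test. Among homeostatic genes, P2ry12, the purine receptor that guides microglial processes, was 834.4 to 1030 CPM in striatum and 967.6 to 1463 CPM in cortex (log2 fold change -0.28 ± 0.14), and Tmem119 had a log2 fold change of -0.07 ± 0.17. Over the 29 tested genes of the homeostatic list the median was -0.03 (12 above 0, 17 below), beside -0.01 over all genes tested, and no member passed. The cytokine Il1b was 690.5 to 987.2 CPM in striatum and 770.2 to 1681 CPM in cortex, and Tnf 1443 to 2602 and 1477 to 2528 CPM. Their log2 fold changes were -0.45 ± 0.18 and -0.08 ± 0.15, both at an adjusted p of 1.00. Ccl2, which recruits monocytes, differed by -0.29 ± 0.16, Cd14, the LPS co-receptor, by 0.18 ± 0.20, and Apoe, the main lipid carrier of the brain, by 0.23 ± 0.19. Tlr4, the LPS receptor, differed by 0.00 ± 0.18. Ccl12 (-0.59 ± 0.27), Cxcl10 (-0.47 ± 0.31), Lcn2 (-0.22 ± 0.27) and Ptger3, a prostaglandin E2 receptor (-0.99 ± 0.33), did not pass either.

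In all, 860 genes of the 46 lists were tested. None passed the edgeR test, 99 had an unadjusted p under 0.05 (3.81% of all genes did) and DESeq2 called 14 (0.369% of all genes). Median log2 fold changes were within 0.2 of 0 for the lists of Toll-like receptor sensing (-0.02, 22 genes), NF-kB subunits and feedback (-0.07, 29 genes), complement (0.02, 22 genes), disease-associated microglia (0.08, 24 genes), phagocytic and scavenger receptors (-0.02, 29 genes), cytokines and chemokines (-0.15, 32 genes), glycolysis (0.01, 20 genes) and cholesterol synthesis and uptake (-0.07, 22 genes). Of the 25 genes for cell cycle and proliferation, 21 were above 0 (median 0.22).

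**Figure D3:**
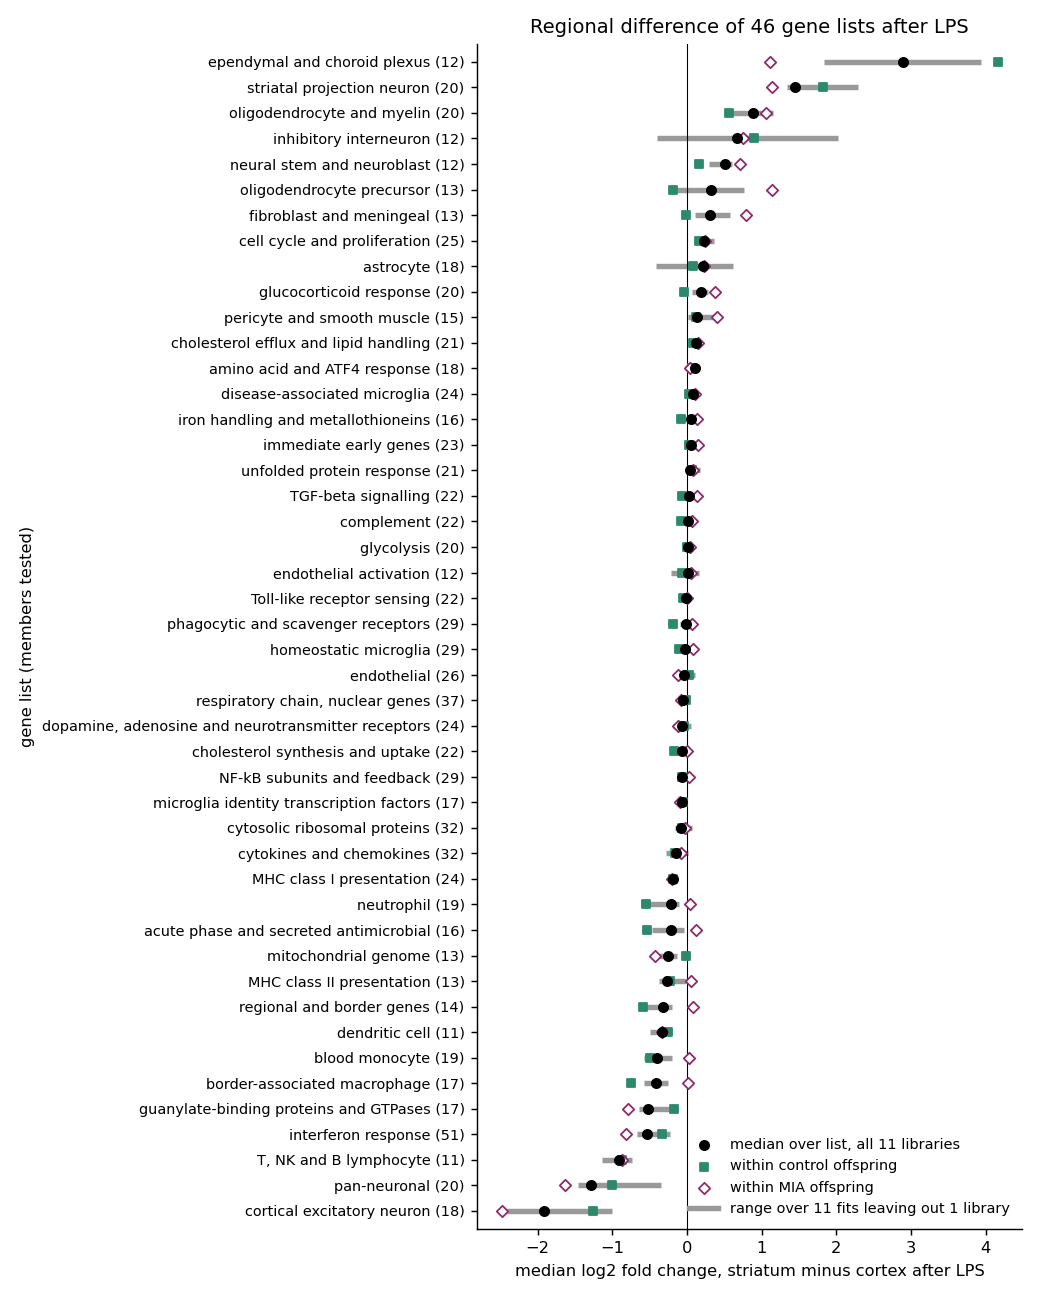
The median log2 fold change of striatum over cortex after LPS for each of 46 gene lists (number of members tested in brackets): black points over all 11 libraries, squares within control and diamonds within MIA offspring, grey bars the range when 1 library is left out. Neural lists lie at both ends, the interferon list lies at -0.54 and the homeostatic list at -0.03.

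Interferon-induced genes had lower values in striatum without any of them passing. All 51 tested members of the list were below 0, against 51.8% of all genes tested, with a median of -0.54. The smallest p was that of Eif2ak2, the kinase that halts translation when it binds double-stranded RNA (-0.77 ± 0.25, adjusted p = 0.967), and 7 members had an unadjusted p under 0.05, as did 3.81% of all genes. Isg15, a ubiquitin-like modifier, was 4.40 to 28.3 CPM in striatum and 3.72 to 36.2 CPM in cortex. Of the 24 genes of MHC class I presentation 23 were below 0 (median -0.19), and of 17 guanylate-binding proteins and related GTPases 15 were (median -0.52).

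The interferon values varied with prenatal group and with 1 library. Summed over the list, control libraries held 6507, 5625 and 9489 CPM in striatum and 7987 to 10740 CPM in cortex. MIA libraries held 2949 and 3135 CPM in striatum and 3090, 2968 and 7185 CPM in cortex, where the last is replicate 3, the library with high neuronal transcripts. The median over the list was -0.34 within control and -0.81 within MIA offspring. Without MIA cortex replicate 3 the median over all libraries was -0.23, with 50 of 51 genes below 0, and those of guanylate-binding proteins and MHC class I presentation were -0.15 and -0.15. The part of that library's other transcripts in this result was not tested.

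**Figure D4:**
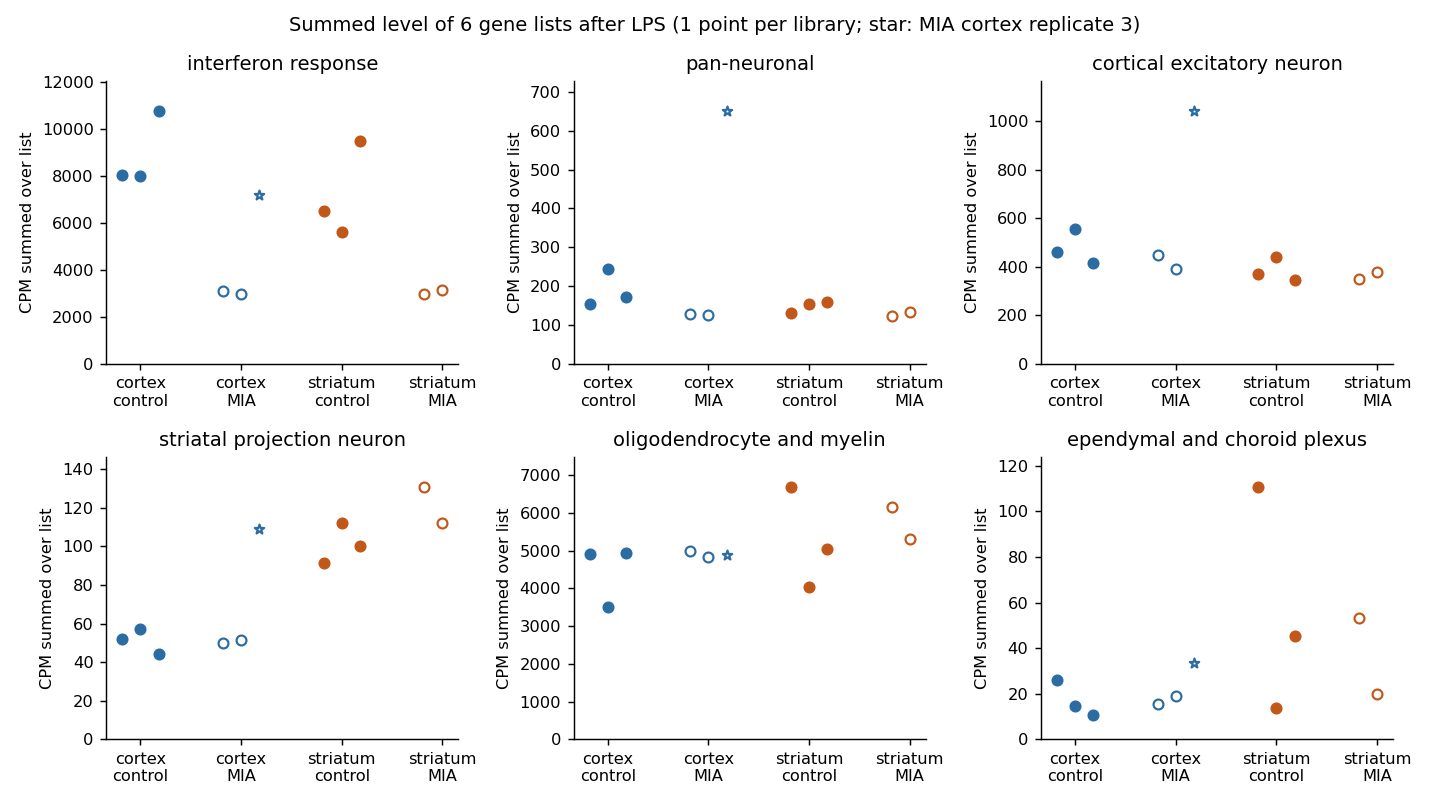
CPM summed over 6 gene lists in each of the 11 libraries after LPS, by region and prenatal group; the star is MIA cortex replicate 3. In the interferon panel the 4 other MIA libraries lie at 2949 to 3135 CPM, below all control libraries, and in the pan-neuronal panel the star lies at 649.8 CPM.

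Transcripts of neurons and other neural cells were present in all 11 libraries, and none of those on the lists passed in edgeR. DESeq2 called Ppp1r1b, Gng7 (adjusted p = 0.01915) and Agt (0.004105) higher in striatum. It called Camk2a, Cck (0.003248) and Syt1 (0.04925) lower. The list of striatal projection neuron genes had a median of 1.45 with 19 of 20 above 0, and 5 of its genes were higher without overlap (0.257% of all genes were). Without MIA cortex replicate 3 that median was 2.28. Ppp1r1b, which encodes DARPP-32 of dopamine-receptive neurons, was 11.2 to 17.3 CPM in striatum and 1.01 to 7.72 CPM in cortex, without overlap. Its log2 fold change was 2.16 ± 0.49 (adjusted p = 0.441 in edgeR, 0.006061 in DESeq2). Crym, a thyroid hormone-binding protein of the same neurons, was 4.17 to 17.3 CPM in striatum and 0 to 2.13 CPM in cortex. Its adjusted p was 0.3485 in edgeR and 0.0004946 in DESeq2. In the other direction, Camk2a, a kinase of excitatory synapses, was 13.04 to 26 CPM in striatum and 32.2 to 586.7 CPM in cortex. Its log2 fold change was -2.87 ± 0.70 (adjusted p = 0.547 in edgeR, 0.02931 in DESeq2). The cortical excitatory neuron list had a median of -1.91 (16 of 18 below 0), which was -1 without MIA cortex replicate 3, and the pan-neuronal list had one of -1.28, which was -0.34 without it. In bulk samples, more cells of a type and more RNA per cell cannot be told apart.

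Oligodendrocyte and myelin genes were above 0 in 20 of 20 (median 0.88), with summed levels of 4028 to 6686 CPM in striatum and 3506 to 4998 CPM in cortex. Without MIA striatum replicate 1 the median was 0.58. Ependymal and choroid plexus genes had the highest median of all lists, 2.89 over 12 tested genes, and summed levels of 13.98 to 110.7 CPM in striatum and 10.6 to 33.5 CPM in cortex. Without control striatum replicate 1, the library with 110.7 CPM, that median was 1.83. Of blood-derived cells, the neutrophil list had a median of -0.21 (1164 to 1966 CPM over the 11 libraries) and the blood monocyte list one of -0.40. The border-associated macrophage list, for macrophages at the brain's borders, had one of -0.41. These are values over all 11 libraries. Within control offspring these medians were -0.55, -0.50 and -0.75, and within MIA offspring 0.03, 0.03 and 0.02. The neutrophil median was -0.14 without control cortex replicate 2, -0.11 without control striatum replicate 1, -0.36 without control striatum replicate 3 or MIA cortex replicate 3 and -0.53 without MIA striatum replicate 2. The monocyte median was -0.20 without control cortex replicate 3, and the border-associated macrophage median was -0.26 without control cortex replicate 1. Of 21 lymphocyte genes listed, 11 were tested, with a median of -0.91 (8 below 0, 3 above). Cd3d and Iglc2 had no count in any of the 11 libraries. Cd4, the 1 member without overlap, was 0.324 to 2.09 CPM in striatum and 3.13 to 5.63 CPM in cortex. Its adjusted p was 0.441 in edgeR and 0.002753 in DESeq2. The part of these cells in the called genes was not tested.

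Within one prenatal group, no gene passed in edgeR without a replicate block: 0 of 15968 in control offspring (0%) and 0 in MIA offspring (0%). A fit with that block, given at the end, called genes in both. Without the block, 468 and 286 genes had an unadjusted p under 0.05 in control and MIA offspring, and DESeq2 called 24 and 8. The log2 fold changes were 4.44 ± 0.62 in control and 4.05 ± 0.64 in MIA offspring for Arg1, 2.20 ± 0.47 and 2.38 ± 0.51 for Tarm1, and -1.25 and -1.13 for Ccr1. Tested directly, the regional difference differed between MIA and control offspring for no gene in edgeR (0%) or in DESeq2, with 180 and 248 genes at an unadjusted p under 0.05. For Retnla, the values were 3.33 in control and 5.95 in MIA offspring. Litters are not given, so litter and prenatal group cannot be told apart.

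Saline libraries show how the same genes differed without LPS. Of 17139 genes tested in a fit of all 23 libraries, 198 passed in saline (1.16%), 132 higher in striatum (0.77%) and 66 lower (0.385%), which ran from 67 without MIA cortex saline replicate 2 to 309 without MIA cortex LPS replicate 3. Arg1, Dmrtb1, Naalad2 and Ccr1 were among them, and Tarm1 was not. The same fit called 8 genes after LPS, where the 11-library fit called 5. These fits have 15 and 8 residual degrees of freedom, so the 198 is not set against the 5 on equal terms. The striatum to cortex difference of Arg1 was 3.98 ± 0.66 in saline, near its 4.27 ± 0.43 after LPS, at different levels: 0.517 to 1.98 CPM in saline striatum and 0 to 0.251 CPM in saline cortex. Tarm1 was at most 0.517 CPM in any saline library. Ccr1 was 6.95 to 19.8 CPM in saline striatum and 28.9 to 58.4 CPM in saline cortex (-1.67 ± 0.24), and Naalad2 24.7 to 37.8 and 10.7 to 21.6 CPM (1.13 ± 0.19).

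Of the 198 genes called in saline, 193 were tested after LPS. The saline contrast compares saline libraries, but the filter and the spread of its fit came from all 23 libraries, so the LPS values are not independent of the choice. The sign was the same for 180 of them (93.3%), against 55.7% of all genes. Among the tested ones, those higher in saline striatum (127) had a median log2 fold change of 3.10 in saline and 1.40 after LPS, and the lower ones (66) had -1.67 and -0.40. The genes were picked by their saline values, so this drop is a description. After LPS, 4 of the 193 passed in the 11-library fit and 9 had a larger difference than in saline.

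**Figure D5:**
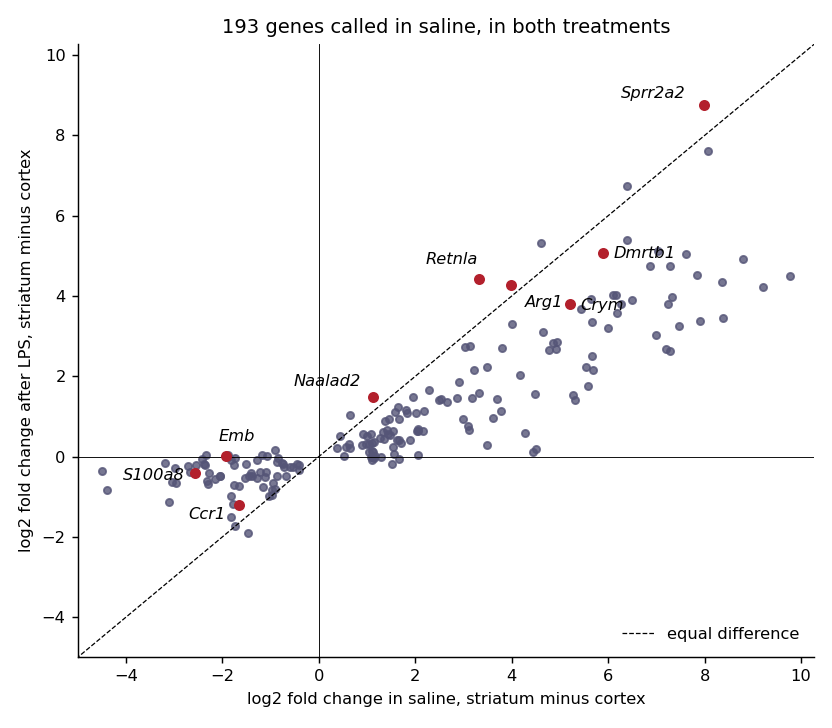
Each point is 1 of the 193 genes called in saline and tested after LPS, with the log2 fold change of striatum over cortex in saline on the x axis and after LPS on the y axis; the dashed line marks equal values. Most points lie between the dashed line and 0, while Arg1, Retnla, Naalad2 and Sprr2a2 lie above the line and Emb and S100a8 near 0 on the y axis.

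Tested directly, the regional difference after LPS differed from that in saline for 0 of 17139 genes in edgeR (0%), with 873 at an unadjusted p under 0.05 and 11 called by DESeq2. The values nearest to the threshold were those of genes that were lower in saline striatum. Emb, an adhesion protein of the immunoglobulin family, was 2.51 to 4.91 CPM in saline striatum and 6.64 to 20.8 CPM in saline cortex. After LPS it was 19.8, 20.4 and 22.01 CPM in control striatum, 20.1 and 34.3 CPM in MIA striatum and 17.5 to 28.1 CPM in cortex. The interaction was 1.96 ± 0.31 (adjusted p = 0.0719). Anxa1, an annexin that dampens inflammation and is high in neutrophils and monocytes, went from 2.88 to 7.07 against 13.2 to 28.5 CPM in saline to 17.2 to 33.99 against 14.1 to 32.8 CPM after LPS (interaction 1.88 ± 0.32, adjusted p = 0.101). Over the neutrophil list, 10 of 19 genes were called lower in saline striatum (median -2.39), against 0.385% of all genes. After LPS none of them was (median -0.21), when only 0.00626% of all genes were called lower. S100a8, an alarmin of that list, was 4.03 to 20 CPM in saline striatum and 15.96 to 234.9 CPM in saline cortex. After LPS it was 83.9 to 261.1 and 113.1 to 377.3 CPM in striatum and cortex (interaction 2.20 ± 0.60, adjusted p = 0.881).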

How the data were processed

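RNA-seq of CD11b-bound cells was deposited as 1 table of 24 libraries with expected counts for 55487 gene identifiers, of which 55141 matched a symbol. Per the submitters' processing notes, the authors used STAR, RSEM and DESeq2; versions and genome build are not given in the sources used here. The deposited expected counts were rounded to whole numbers (6.92% were not whole). Genes with a count of about 10 in enough libraries and 15 in total were kept, libraries were scaled by TMM, and edgeR 4.0.16 (R 4.3.3) fitted a quasi-likelihood model with region and prenatal group on 11 libraries (8 residual degrees of freedom). Within-group values used a 4-group fit of these libraries, and saline values and the region by treatment interaction an 8-group fit of 23 libraries. p-values were adjusted by Benjamini-Hochberg over all genes tested, at 0.05. Levels are TMM-scaled CPM. The scripts were tested on simulated data.

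Genes were named by a rule: up to 15 called genes per direction with at least 10 CPM and no overlap, up to 4 called members of each list, up to 6 per direction for the other comparisons, and a fixed set of genes of interest (P2ry12, Tmem119, Cx3cr1, Il1b, Tnf, Ccl2, Ccl12, Cxcl10, Isg15, Tlr4, Cd14, Apoe, Saa3, Lcn2, Ptger3, Emb, Anxa1, Retnla). Other genes were chosen after their values were seen, also where this is not said beside them. The members and lists were chosen with earlier results of these data known. Replicate numbers did not meet the criterion for pairing. Alternatives were DESeq2 1.42.0, RLE scaling, other filters, all 23 libraries in the fit, the excluded library added, no prenatal term, a replicate block and leaving out each library.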

Additional observations from a re-analysis of the deposited data

Results flagged for a closer look

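The library titled as excluded (MIA striatum replicate 3, after LPS) took part in no main comparison and was added only as an alternative. It held 30.6 CPM of Arg1, 7.72 CPM of Dmrtb1 and 8.65 CPM of Tarm1, each above the highest cortex library after LPS.

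Single libraries lay far from the rest of their region after LPS in 19 of 138 groups of values checked; chance flags about 1 in 20, and each region mixes both prenatal groups. In striatum, Arg1 was highest in control replicate 2 (52.45 CPM), P2ry12 lowest in MIA replicate 1 (834.4 CPM) and Emb highest in MIA replicate 2 (34.31 CPM). Control striatum replicate 2 also had the lowest summed glycolysis genes (5683 CPM) and cholesterol synthesis genes (455.9 CPM) and the highest mitochondrial genome transcripts (31000 CPM). MIA striatum replicate 1 had the highest oligodendrocyte precursor (69.48 CPM) and inhibitory interneuron (18.87 CPM) sums.

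In cortex, control replicate 1 was highest for Cx3cr1 (6595 CPM), Cxcl10 (253.5 CPM), Apoe (2169 CPM) and fibroblast genes (306.6 CPM), and control replicate 3 for Tlr4 (193.9 CPM). Oligodendrocyte genes were lowest in control replicate 2 (3506 CPM). MIA cortex replicate 3 was highest for the pan-neuronal (649.8 CPM), striatal projection neuron (108.8 CPM), cortical excitatory neuron (1041 CPM) and inhibitory interneuron (29.04 CPM) sums and lowest for disease-associated microglia genes (19360 CPM).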

How the results depend on the processing

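Arg1 and Dmrtb1 were called in every alternative run. Tarm1 was lost with all 23 libraries in the fit (adjusted p = 0.283) and without the prenatal term (0.0916), Ccr1 with all 23 libraries (0.0944) and Naalad2 with the excluded library added (0.296). The count of called genes after LPS, 5, was 59 with DESeq2, 28 without a filter, 8 with all 23 libraries and 2 to 6 with 1 library left out. Within control offspring these were 24, 11, 3 and 0 genes, and within MIA offspring 8, 2, 2 and 0. The region by treatment interaction called 11 genes with DESeq2, 13 without a filter and 0 to 2 with 1 library left out (2 without MIA striatum LPS replicate 1, and 1 without MIA cortex LPS replicate 2, control cortex saline replicate 2 or MIA cortex saline replicate 1 or 3). The saline count was 593 with DESeq2, 567 without a filter and 67 to 309 with 1 library left out; it fell by over 1.5 times without control cortex saline replicate 1, 2 or 3, control striatum saline replicate 1 or 2, MIA cortex saline replicate 1, 2 or 3 or MIA striatum saline replicate 3. The cause of these shifts was not tested.

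With the replicate block, 40 genes were called after LPS, 25 within control and 10 within MIA offspring, and 603 in saline. Same-numbered libraries correlated at -0.2 to 0.314 and 10 of 11 pairs correlated best with their own number, with the 3 control pairs after LPS at 0.275 to 0.314. MIA offspring after LPS had 2 striatum libraries, whose correlations with the same and the other number mirrored each other (-0.2 and 0.2, 0.215 and -0.215). Those 2 pairs therefore say little about pairing. The 3 pairs not over 0.1 were control saline replicate 2 (0.0422), MIA saline replicate 2 (0.0646) and MIA LPS replicate 1 (-0.2). The last of them is 1 of the 2 pairs that say little. As these were not over 0.1 and the labels name no shared animal or batch, the numbers were not used as pairs. The counts of called genes depend on this choice. Whether they mark an animal or batch is a hint from the data, not the design. The block also called Saa3 (adjusted p = 0.048), Ccl22 (0.00326), Ccr7 (0.00344), Cd55 (0.00596) and Ly9 (0.0201). Its 27 genes higher in striatum held 4 from the striatal projection neuron list and 2 from the oligodendrocyte and myelin list. Its 13 lower genes held 1 from the cortical excitatory neuron list.

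Genes near 0 changed sign. Adding the excluded library gave -0.10 for Cx3cr1, 0.033 for Tnf, 0.0201 for Ccl2, -0.24 for Tlr4 and -0.064 for Emb. Tlr4 was -0.0028 with DESeq2, -0.0028 with RLE scaling and -0.0169 with the block, where Emb was -0.0853. Anxa1 was 0.0028 with all 23 libraries and 0.0043 without the prenatal term. Leaving out 1 library gave -0.17 to 0.052 for Tmem119, -0.0471 to 0.0879 for Cx3cr1, -0.20 to 0.0169 for Tnf, -0.12 to 0.15 for Tlr4, -0.16 to 0.10 for Emb and -0.19 to 0.13 for Anxa1. Genes of few counts, such as Retnla with at most 5 counts in a cortex library, are limited by depth.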
